A study of Mus musculus with 4 samples.

Results

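Acinar cells are described here as they stood 6 weeks after caerulein pancreatitis, in the library C6W of a single-cell RNA study of mouse pancreas. A cell barcode of C6W was taken as acinar when it held at least 500 UMIs (unique molecular identifiers, 1 per captured RNA molecule) and 200 genes and at most 20% mitochondrial (mt-) UMIs, and when 13 digestive genes together gave 30% or more of its UMIs. The 13 genes were Cpa1, Cpb1, Cela1, Cela2a, Cela3b, Ctrb1, Prss2, Pnlip, Amy2a5, Clps, Cel, Try4 and Try5. This gave 360 acinar barcodes of 2773 kept C6W barcodes, a share of 12.98% (11.8 to 14.3%, exact Clopper-Pearson 95% interval), and of 12807 kept barcodes in the series. The barcodes were thus chosen by the measured UMIs of these 13 genes, in C6W and in the libraries set beside it, so the level of the genes in them is a description and not a finding.

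All 4 groups were wild-type C57BL/6 mice. C6W and C2D had received caerulein and were labelled Pancreatitis, with 6 weeks and 2 days of recovery, and S6W and S2D had received saline, were labelled Inflammation-naïve and had the same recovery times. Pancreata were dissociated, dead cells that took up DAPI were left out by sorting, and the remaining cells were run on the 10x Genomics 3' assay. Each group was 1 library, and the number of animals behind it is not given in the labels used here, so no test against the spread between mice was possible, no p-value is given, and every interval covers counting error only.

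Acinar cells make up most of the exocrine pancreas. They synthesise trypsinogens, chymotrypsinogens, elastases, carboxypeptidases, lipases and amylases as inactive or stored proteins, pack them into zymogen granules and release them when cholecystokinin or acetylcholine signals a meal. The factors Ptf1a, Rbpjl, Nr5a2 and Bhlha15 keep this programme running. Caerulein mimics cholecystokinin and drives secretion past its normal limit. Injured acinar cells lose enzyme expression and take on duct-like genes, a change called acinar-to-ductal metaplasia, before the tissue recovers.

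The same rule found 444 acinar barcodes in S6W, 433 in S2D and 488 in C2D. Summed over acinar barcodes, the depth was 3765932 UMIs in C6W, 7835832 in S6W, 5665189 in S2D and 6573400 in C2D. Some barcode sequences occurred in more than 1 library. C6W shared 16 deposited barcodes with S6W, 8 with S2D and 7 with C2D, and 2 of its acinar barcodes were among them, with 0.191% of the acinar UMIs. In S6W 15 acinar barcodes were shared and held 32.4% of the acinar UMIs. Of these, 12 had 111394 to 334887 UMIs in S6W and recurred in C2D with 696 to 2296 UMIs. The control S6W therefore rests in part on barcodes whose sequences also occurred in another library, and the cause was not tested. Results against S6W are given with and without all shared barcodes, a check chosen after the data were seen. Leaving them out also takes these 12 deep barcodes out of S6W, so it changes the depth of the control too.

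An acinar barcode of C6W had a median of 6933 UMIs and 541.5 genes, and 0.268% of its UMIs were mitochondrial. The saline libraries stood at 7914.5 UMIs, 519 genes and 0.165% in S6W and at 6705 UMIs, 459 genes and 0.234% in S2D. The other kept barcodes of C6W had a median of 3051 genes and 3.75% mitochondrial UMIs. Acinar barcodes of the 3 libraries thus carried few genes and few mitochondrial transcripts, and C2D differed with 10329 UMIs and 1097 genes. Depth within C6W ran from 602 to 227171 UMIs, and the 5 deepest barcodes held 17.5% of all acinar UMIs.

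Within a C6W acinar barcode the 13 rule genes gave 61.4% of the UMIs (median), and the 44 digestive genes on both lists gave 82.9%. In S6W these medians were 63.1 and 85.4%, in S2D 66.2 and 86.7%, and in C2D 45.2 and 55.4%. The threshold of 30% fell in a thin part of the C6W distribution. The 4 barcodes just below it had rule shares of 27.3 to 28.6%, and the 4 just above had 30.8 to 34.3%. In all, 5 kept C6W barcodes lay between 25 and 30%, against 54 in C2D, where the threshold crossed a continuous range. Comparisons with C2D are therefore those of a truncated group. Barcodes with at least 3 UMIs of the lymphoid markers Cd3d, Cd3e, Cd3g, Cd79a, Cd79b and Ms4a1, which should make no enzyme, had a mean of 97.6 digestive UMIs in C6W, against 8700 in acinar barcodes.

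**Figure D1:**
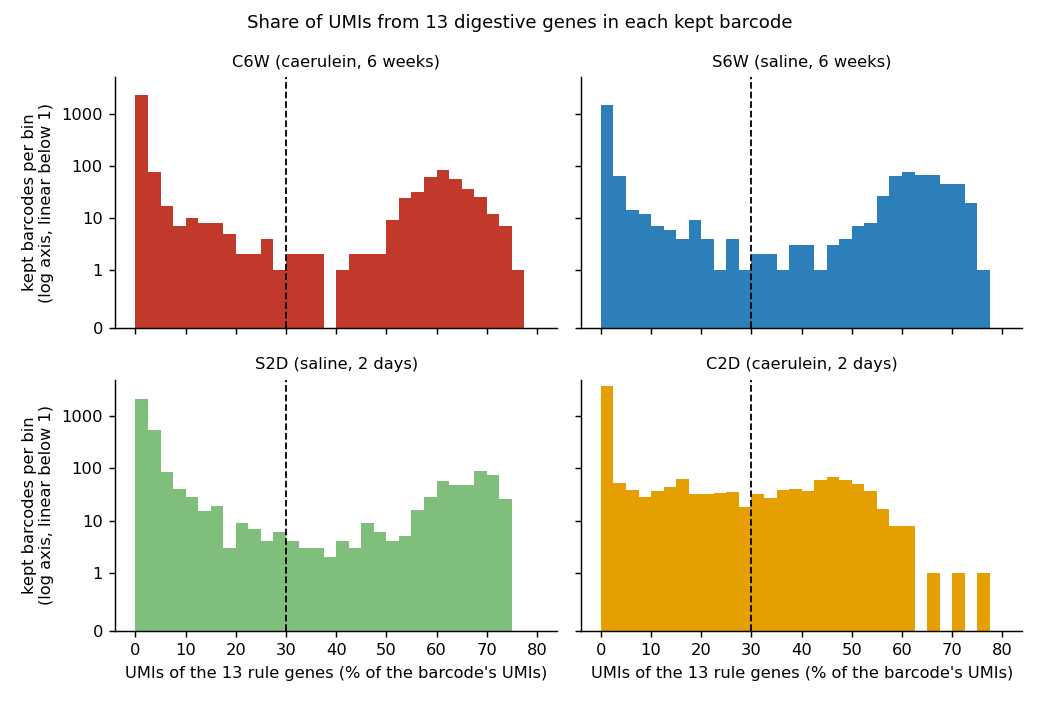
Histogram of the share of a barcode's UMIs that came from the 13 rule genes (x axis, %), for all kept barcodes of each library (y axis, barcodes per bin on a log axis that is linear below 1). The dashed line is the 30% threshold: C6W, S6W and S2D have few barcodes near it, while C2D has 54 barcodes between 25 and 30% and 60 between 30 and 35%.

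Of 14 acinar markers, 3 (Cpa1, a carboxypeptidase, Cel, the bile salt-activated lipase, and Prss2, a trypsinogen) are genes of the rule, so their UMIs in these barcodes were fixed by it and check nothing. The label was checked on acinar transcription factors, which the rule did not use. Bhlha15, the factor Mist1 that drives secretory maturation, had a UMI in 22.5% of C6W acinar barcodes and in 2.91% of the lymphoid-marker barcodes, whose median depth was 8630 UMIs. Rbpjl, a subunit of the PTF1 complex, had one in 36.1% against 0.969%, and Ptf1a in 14.2% against 0. Of 413 such lymphoid barcodes, a count of 0 allows a share of up to 0.726%. Markers of other cells were low. The defining duct gene Cftr had no UMI in C6W acinar barcodes, and 10 ductal markers summed to 232 CPM (counts per 1000000 UMIs, unscaled), against 5757 in the other kept C6W barcodes. The 10 fibroblast markers summed to 460 CPM and the 10 macrophage and monocyte markers to 19.1, against 27304 and 1617 in the other barcodes. At the same time 275 of the 360 barcodes (76.4%) held at least 2 UMIs of a marker of another cell type. The acinar label was kept on these 3 transcription factors. Nr5a2, another factor on the marker list, had few UMIs in C6W, given below, and did not enter this check. The other markers outside the rule, 11 in all with the factors, are not shown here.

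The make-up of the digestive transcripts was compared as each gene's share of the summed digestive UMIs, which does not depend on how libraries are scaled. These are shares of counted 3' ends and are not corrected for transcript length. In C6W, Ctrb1, chymotrypsinogen B, took 19.7% of digestive UMIs, against 14.9% in S6W, 15.6% in S2D and 35.1% in C2D. Clps, colipase, which anchors pancreatic lipase to fat droplets, took 7.22% in C6W, 5.12% in S6W, 4.34% in S2D and 5.06% in C2D. Both genes thus took a larger share in C6W than in either saline library. For Ctrb1, but not for Clps, the C6W share lay between those of the saline libraries and C2D.

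Several other enzymes took a smaller share in C6W than in both saline libraries. Cel took 1.10% of digestive UMIs in C6W, 1.77% in S6W, 1.56% in S2D and 0.680% in C2D. Pnlip, pancreatic triglyceride lipase, took 6.66, 8.04, 7.05 and 0.907% in the same order. The elastase Cela1 took 6.64, 7.89, 7.55 and 1.68%, and the elastase Cela2a 6.28, 7.20, 9.28 and 2.35%. Cpa1 took 4.37, 5.38, 5.65 and 4.12%. For these 5 genes C6W lay between the saline libraries and C2D. By class, elastases and carboxypeptidases took 27.0% in C6W, 30.5% in S6W, 31.9% in S2D and 15.5% in C2D, and trypsinogens and chymotrypsinogens 44.2, 42.3, 43.2 and 67.5%.

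Other digestive genes took a larger share in C6W than in both saline libraries. Spink1, the trypsin inhibitor of the acinar cell, took 0.486% of digestive UMIs in C6W, 0.294% in S6W, 0.228% in S2D and 0.937% in C2D. Tff2, a trefoil peptide, took 0.729, 0.518, 0.463 and 0.141%, and the ribonuclease Rnase1 2.59, 2.33, 1.86 and 1.96%. For Tff2 and Rnase1 the larger share was not seen among barcodes of low Clps share, given below. Try5, a trypsinogen, took 3.07, 3.19, 3.20 and 11.5%. The high Try5 share of C2D was thus not seen in C6W, whose share lay just below both saline libraries.

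As a single measure, the share of digestive UMIs that fell on different genes (the total variation distance) was 8.98% between C6W and S6W and 9.76% between C6W and S2D. The 2 saline libraries differed by 4.38%, and C6W and C2D by 29.8%. C6W thus lay farther from each saline library than these lay from each other, a description of 3 libraries with no test. Without barcodes found in more than 1 library the values were 5.73% against S6W, 9.58% against S2D and 5.05% between the saline libraries, so the distance to S6W was then nearer to that between the controls. With only barcodes of 4000 to 16000 UMIs they were 5.27, 11.2 and 7.57%, and C6W was then nearer to S6W than the saline libraries were to each other. Under both restrictions C6W lay above both saline libraries for Ctrb1 and below both for Cel. Ctrb1 stood at 19.7, 16.5 and 15.8% of digestive UMIs in C6W, S6W and S2D without shared barcodes and at 21.1, 18.8 and 17.4% in the depth range. Cel stood at 1.10, 1.58 and 1.54% without shared barcodes and at 0.902, 1.27 and 1.41% in the depth range.

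**Figure D2:**
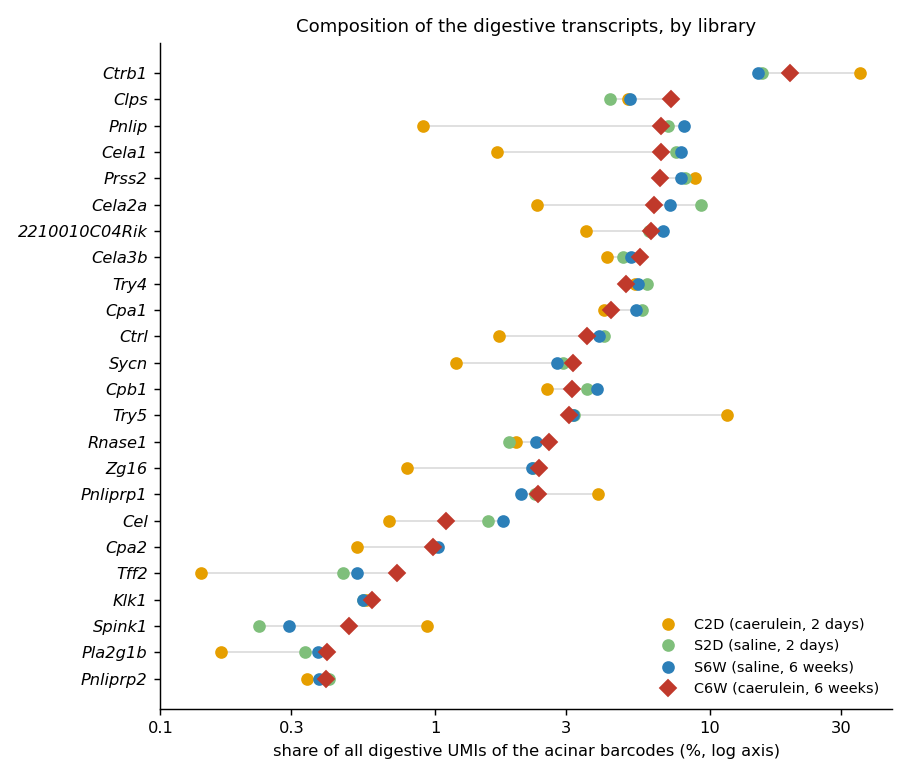
Share of all digestive UMIs of the acinar barcodes taken by each of the 24 genes with at least 0.4% in C6W (x axis, %, log axis), with 1 point per library. The C6W diamonds lie to the right of both saline points for Ctrb1, Clps, Tff2 and Spink1 and to the left of both for Cel, Pnlip, Cela1, Cela2a and Cpa1.

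The PTF1 complex, in which Ptf1a and Rbpjl work together, is known to bind an E-box beside a TTTCCC box in promoters of digestive genes. The 250 bases before the start of Cel, Cela2a and Ctrb1 are shown because Cel and Cela2a took a smaller and Ctrb1 a larger share of digestive UMIs in C6W than in both saline libraries. They come from RefSeq on GRCm38.p6 (mm10) and are given in gene orientation, with CACCTG and TTTCCC on either strand in capitals. Those of Cel are chr2:28563404-28563653, minus strand, those of Cela2a chr4:141826006-141826255, minus strand, and those of Ctrb1 chr8:111691011-111691260, minus strand.
Cel: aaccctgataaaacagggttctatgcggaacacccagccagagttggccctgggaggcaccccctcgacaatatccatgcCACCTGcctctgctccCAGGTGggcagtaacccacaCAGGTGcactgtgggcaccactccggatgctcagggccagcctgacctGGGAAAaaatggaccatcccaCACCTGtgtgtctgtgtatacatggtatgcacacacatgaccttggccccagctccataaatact
Cela2a: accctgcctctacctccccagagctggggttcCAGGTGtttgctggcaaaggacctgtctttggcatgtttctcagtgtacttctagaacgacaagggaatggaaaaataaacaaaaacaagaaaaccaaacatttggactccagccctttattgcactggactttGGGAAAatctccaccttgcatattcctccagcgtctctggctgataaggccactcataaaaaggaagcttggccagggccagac
Ctrb1: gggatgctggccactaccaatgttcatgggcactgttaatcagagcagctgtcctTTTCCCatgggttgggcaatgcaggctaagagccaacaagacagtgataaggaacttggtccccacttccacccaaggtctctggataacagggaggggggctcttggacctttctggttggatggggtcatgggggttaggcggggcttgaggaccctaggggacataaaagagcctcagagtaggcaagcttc
The Cel window held 4 CACCTG matches and 1 TTTCCC match, that of Cela2a 1 of each, and that of Ctrb1 0 and 1. CACCTG is only 1 form of the E-box. Other forms, such as the cagctg shortly before TTTCCC in the Ctrb1 window, were not counted or marked. Cpa1, which also took a smaller share in C6W, had 0 and 1 like Ctrb1, so the matches did not separate genes of smaller and larger share. Over both digestive lists, 33 genes matched the table with 35 promoters. CACCTG was in 16 of these (45.7%), against 17.2% of 32851 promoters of all genes, TTTCCC in 9 (25.7%) against 21.9%, and AAGGTCA, the core bound by Nr5a2, in 5 (14.3%) against 4.08%. CACCTG and TTTCCC do not overlap as words. These are matches of letters in a fixed window, and the libraries carry no measurement of binding.

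Acinar barcodes of C6W differed among themselves most in a few abundant genes. The mean squared Pearson residual, which is about 1 where barcodes differ by counting error alone at their own depth, had a median of 1.48 over 664 genes and a 90th percentile of 8.95. It was 207 for Malat1, a nuclear noncoding RNA, 185 for Clps, 172 for Try5, 166 for Cela2a and 101 for Ctrb1. The same genes varied in the controls, with Clps at 200 in S6W and 187 in S2D and Cela2a at 135 and 122. Some of the other high values in C6W came from single barcodes: 1 barcode held 274 of the 477 UMIs of Spp1 (osteopontin), 1 held 143 of the 273 of Cd74 and 1 held 242 of the 354 of Mgp.

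The Clps share ranged over the barcodes of C6W from 1.68% of digestive UMIs at the 10th percentile to 14.7% at the 90th, with a median of 8.67%. The median was 6.34% in S6W, 2.19% in S2D and 3.93% in C2D. At a value of 4%, chosen after the distribution was seen, 275 of 360 C6W barcodes (76.4%, 71.7 to 80.7%) lay at or above it, 63.3% in S6W (58.6 to 67.8%), 36.7% in S2D (32.2 to 41.5%) and 49.0% in C2D (44.5 to 53.5%). C6W had the highest share, but S6W and S2D also differed from each other by more than C6W and S6W did. The value cuts a range and not a type, and 23 C6W barcodes lay between 3 and 5%.

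The enzymes were ordered along this range. Among the 360 barcodes of C6W, the Clps share rose with that of Tff2 (Spearman's rho 0.82), Spink1 (0.76), Zg16, a zymogen granule lectin (0.73), and Rnase1 (0.72), and fell as those of Cel (-0.77), Cela2a (-0.77), Ctrl (-0.70) and Cpa1 (-0.70) rose. These are shares of 1 total, so some opposition is built in, and the barcodes come from 1 library. C6W barcodes under 4% Clps devoted 9.97% of digestive UMIs to Cela2a, 2.01% to Cel and 6.17% to Cpa1, and those at 4% or more 5.44, 0.888 and 3.96%. Spink1 took 0.217 and 0.547% in the same ranges and Tff2 0.314 and 0.823%.

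**Figure D3:**
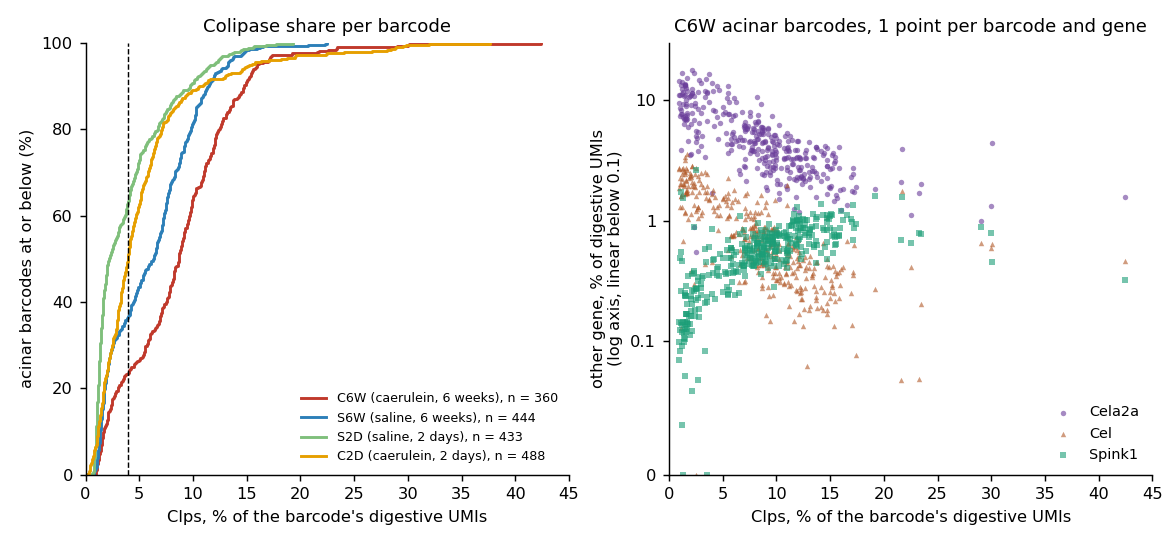
Left, percent of the acinar barcodes of each library (y axis) at or below a given Clps share of the barcode's digestive UMIs (x axis, %), with the 4% value dashed: C6W (n = 360) lies to the right, with medians of 8.67% in C6W, 6.34% in S6W and 2.19% in S2D. Right, shares of Cela2a, Cel and Spink1 (y axis, %, log axis that is linear below 0.1) against that of Clps in C6W barcodes, where Cela2a and Cel fall and Spink1 rises as Clps rises.

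The same order held in the saline libraries, with rho between Clps and Cela2a of -0.74 in S6W and -0.70 in S2D, while in C2D rho was -0.28 for Cela2a, 0.33 for Cel and -0.01 for Spink1. These are descriptions over barcodes of 1 library each. Genes outside the digestive lists also followed it. They were measured as shares of all UMIs of a barcode, over the 341 C6W barcodes with at least 3000 UMIs and without thinning. Gm42418 (an unnamed gene) had rho 0.81 with Clps, and the ribosomal protein genes Rps24, Rpl38 and Rpl41 had 0.68, 0.62 and 0.62. Eef2, an elongation factor, had -0.54. Transcript length moved with this order: the 30 non-digestive genes with the most positive rho had a median length of 586 bases and the 30 with the most negative 1182, and rho between length and the gene's own rho was -0.37 over 235 genes in C6W. The median number of genes per barcode was 444 under 4% Clps and 556 at or above it. The part of transcript length, RNA quality or depth in this order was not tested.

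Within each range of Clps, the difference in Ctrb1 was still present. Under 4%, Ctrb1 took 17.5% of digestive UMIs in C6W, 14.9% in S6W and 14.9% in S2D, and at 4% or more 20.2, 14.9 and 16.1%. In finer ranges its size varied. Under 2% Clps the Ctrb1 shares were 16.7, 16.2 and 15.8%, and at 2 to 4% they were 18.8, 14.0 and 13.8%. At 4 to 8% they were 18.4, 13.8 and 15.2%, and at 8% or more 22.1, 19.8 and 20.7%. These values include the shared barcodes. Cel at 4% or more took 0.888% in C6W, 1.59% in S6W and 1.34% in S2D, but under 4% it took 2.01, 2.21 and 1.83%, so that C6W lay between the controls there. Cela2a under 4% took 9.97% in C6W and lay between S6W (8.02%) and S2D (10.98%).

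Across all genes, C6W was close to the saline control of the same recovery time. UMIs were summed over acinar barcodes and divided by totals adjusted with TMM (trimmed mean of M values), which gives a level in scaled CPM, counts per 1000000 UMIs of the adjusted total. A gene entered a comparison when its UMIs in the pair of libraries came to 100 or more. Of 1539 genes, 28 were at least 2-fold higher in C6W than in S6W (1.82%) and 22 at least 2-fold lower (1.43%), and 72.3% lay within 0.5 on the log2 scale. Against S2D, 15 of 1369 were higher (1.1%) and 25 lower (1.83%), and between the saline libraries S6W and S2D 20 of 1651 were higher (1.21%) and 38 lower (2.3%). The number of genes past 2-fold between C6W and a control was thus no larger than between the controls. The comparisons with S6W and S2D share the C6W library. In both, 4 genes were 2-fold higher and 2 were 2-fold lower, namely 1810009J06Rik, Gm2663, Gm26917 and Id3 on the higher side and Amy2a5 and Pld3 on the lower. For 1810009J06Rik and Gm2663, 1 C6W barcode held 175 of 187 and 121 of 128 UMIs. Without shared barcodes the counts against S6W were 23 higher and 10 lower of 1374 genes.

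Among the 22 genes lower than in S6W were 6 digestive genes and the 4 haemoglobin genes Hbb-bs, Hbb-bt, Hba-a1 and Hba-a2. Erythroid markers summed to 931 CPM in S6W acinar barcodes and 1.06 in C6W, and the part of red cell RNA in these 4 ratios was not tested. Plain scaling by total UMIs moved the median of all genes by 0.58, from -0.22 to 0.36, and gave 114 higher and 4 lower, which changed the share of higher calls from 56.0 to 96.6%. Below, ratios are therefore given with the median of all genes, -0.22 against S6W and -0.12 against S2D, in view.

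The 40 digestive genes with enough UMIs had a median log2 ratio of -0.71 against S6W, with 6 lower and 1 higher. Against S2D it was -0.38, with 1 lower and 3 higher. Of all genes compared, 1.43% were lower and 1.82% higher against S6W, and 1.83 and 1.1% against S2D. The 13 genes that chose the barcodes are among them. Over members with at least 20 UMIs the median was -0.65, or -0.43 relative to the median of all genes. Relative to it, the value was -0.21 without shared barcodes and -0.24 against S2D. Under plain scaling the digestive median itself was -0.072.

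Amylases, which cut starch, had the lowest median of the digestive classes against both saline libraries. They gave 0.059% of digestive UMIs in C6W. Without barcodes with markers of other cells the rank did not hold. Their median against S6W was then -0.18, and that of elastases and carboxypeptidases -0.45. Amy2a5 stood at 243 scaled CPM in C6W, 542 in S6W, 496 in S2D and 29.5 in C2D, with a log2 ratio of -1.16 against S6W (-1.25 to -1.07, exact conditional binomial 95% interval) and -1.03 against S2D. Amy2a3, Amy2a2 and Amy1 stood at -1.30, -1.09 and -1.13 against S6W but at -0.20, -0.12 and -0.73 against S2D. The copies of Amy2a are nearly identical and can share reads. Without shared barcodes Amy2a5 stood at -0.54 and Amy1 at -0.77 against S6W, and neither passed 2-fold. Among barcodes thinned to 3000 UMIs, 52.8% of C6W had an Amy2a5 UMI, 59.2% of S6W and 70.2% of S2D. Unthinned, the shares were 77.5, 83.1 and 87.3%, against 10.2, 10.9 and 16.4% of the lymphoid-marker barcodes.

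Cel stood at 6107 scaled CPM in C6W, 15389 in S6W, 11568 in S2D and 1199 in C2D. C6W lay below both controls, with a log2 ratio of -1.33 against S6W (-1.35 to -1.32) and -0.92 against S2D, and of -0.83 against S6W without shared barcodes. Cpb1, Cpa1 and Pnlip stood at -0.95, -0.94 and -0.92 against S6W and -0.60, -0.78 and -0.49 against S2D. Elastases and carboxypeptidases had a median of -0.87 against S6W and -0.60 against S2D, and all 6 measured members lay below 0 in both. None of the 6 passed 2-fold, and under plain scaling their median, over members with at least 20 UMIs, was -0.26.

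Genes of the secretory pathway were measured from lists. Of 23 genes of folding and stress in the endoplasmic reticulum, 1 was 2-fold lower than in S6W and none was higher. The median was -0.52 against S6W and -0.26 against S2D, and 0.06 against S6W under plain scaling over members with at least 20 UMIs. The 1 gene was Sdf2l1, a component of an endoplasmic reticulum chaperone complex, with 31.5 scaled CPM in C6W, 70.3 in S6W, 59.7 in S2D and 19.4 in C2D. Its ratio was -1.16 (-1.41 to -0.91), or -0.92 against S2D and -0.76 against S6W without shared barcodes. Edem2, which directs misfolded glycoproteins to degradation, stood at -0.96 and -1.07 against S6W and S2D, and Hspa5 (BiP), the main chaperone, at -0.36 and -0.33, a sign that plain scaling turns against S6W. The other 25 secretory and translation genes had a median of -0.32, or 0.27 under plain scaling over members with at least 20 UMIs, and none passed 2-fold. Of 18 genes of mitochondrial respiration none passed 2-fold either, with a median of -0.31 (0.27 under plain scaling over members with at least 20 UMIs). For these classes the sign therefore depends on the scaling.

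**Figure D4:**
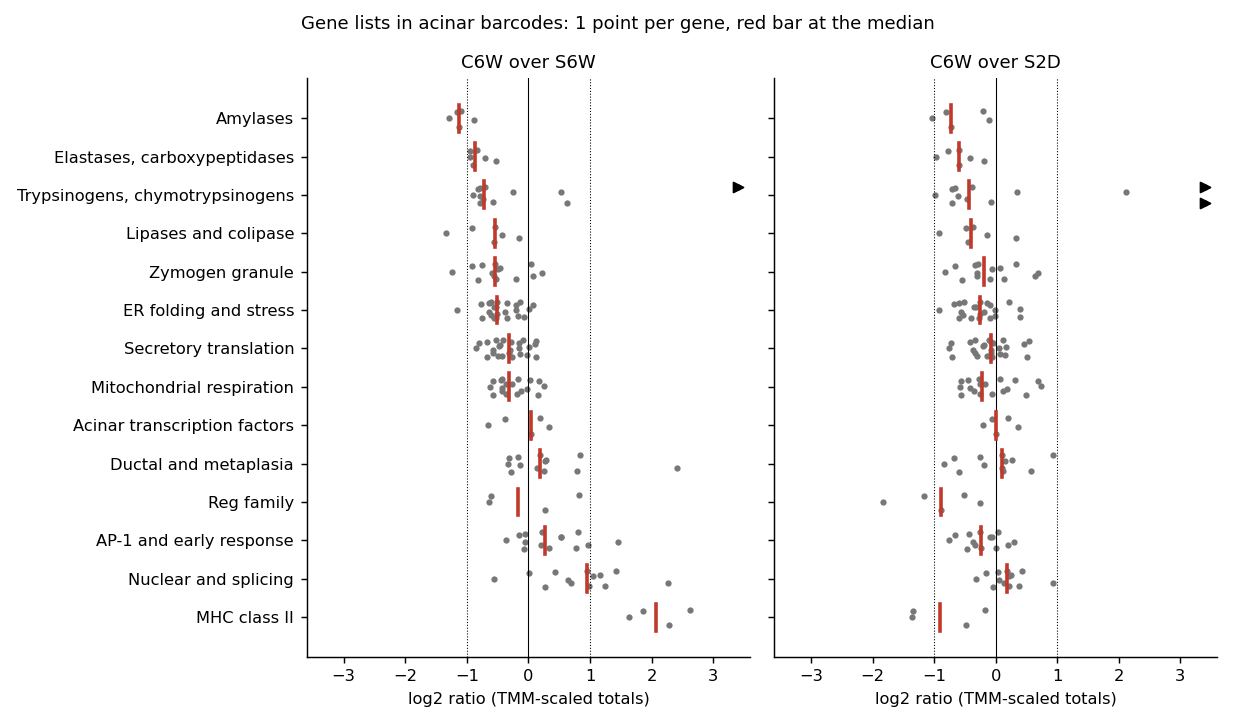
Log2 ratios of C6W over S6W (left) and over S2D (right) in acinar barcodes, with 1 point per gene of 100 UMIs or more, red bars at list medians, dotted lines at 2-fold and black arrows for genes beyond the axis. Amylases have medians of -1.13 and -0.73, and nuclear and splicing genes (0.95 and 0.18) and MHC class II genes (2.07 and -0.91) differ between the 2 controls.

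Transcription factors of the acinar cell were measured from a list. Of 5 measured members of the list none passed 2-fold, and their median was 0.04 against S6W (0.51 under plain scaling over members with at least 20 UMIs) and 0.01 against S2D. Bhlha15 stood at 20.1 scaled CPM in C6W, 19.5 in S6W, 23.1 in S2D and 11.95 in C2D, with a ratio of 0.04 (-0.32 to 0.40). Rbpjl stood at 51.3, 45.05, 44.9 and 35.3, with 0.19 (-0.04 to 0.42), and Ptf1a at 13.9, 10.98, 10.8 and 6.52, with 0.34 (-0.12 to 0.80). All 3 intervals held 0 under TMM scaling. Plain scaling raised each ratio against S6W and its bounds by 0.58, and none of the 3 intervals then held 0. Bhlha15 then stood at 0.62. Nr5a2, with 16 UMIs in C6W, 34 in S6W and 11 in S2D, was too low for the comparison of 100 UMIs and stood at -0.61 against S6W (-1.56 to 0.29) and 0.77 against S2D (-0.43 to 2.02). Xbp1, which drives secretory expansion, stood at -0.65 against S6W and 0.01 against S2D. The low UMI numbers of these genes (78 for Ptf1a, 113 for Bhlha15 in C6W) would hide differences of the size of their intervals.

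Duct and metaplasia genes, which were high in C2D, were in C6W mostly within 2-fold of the controls. Of 13 measured members 1 was 2-fold higher than in S6W, with a median of 0.19, and none passed 2-fold of 12 against S2D (median 0.10). Against C2D, 13 of 18 were lower (21.9% of all 2769 genes compared were) and 1 was higher (8.56%), with a median of -2.14. The duct keratin Krt19 stood at 12.997 scaled CPM in C6W, 11.9 in S6W, 6.85 in S2D and 53.3 in C2D, and Krt18 at 76.9, 86.3, 88.0 and 506. Clu, a secreted chaperone raised in injury, stood at 435, 548, 522 and 2907. The 1 member past 2-fold was Spp1, at 2.41 against S6W (2.13 to 2.71) and 0.58 against S2D. Without its fullest barcode in each library it stood at 1.74 and -0.23. The ductal marker Sox9 stood at 0.84 against S6W. At a minimum of 20 UMIs, 4 of 19 members were higher than in S6W, beside 298 of 5336 genes, and none was lower. Their median was 0.28, beside -0.10 for all genes. Against S2D at this minimum, 2 of 19 were higher, beside 202 of 5232 genes, with medians of 0.16 and -0.08.

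Reg proteins are secreted by acinar cells in pancreatic injury. Reg3b stood at 33.5 scaled CPM in C6W, 19.0 in S6W, 118 in S2D and 6321 in C2D, and Reg2 at 79.0, 65.5, 177 and 3618. C6W lay between the saline libraries for both genes. Of 4 measured members none passed 2-fold against S6W (median -0.17, or 0.76 under plain scaling over members with at least 20 UMIs). At the same time 2 of 5 were lower than in S2D (median -0.89) and 5 of 6 lower than in C2D (median -5.59). Of all genes compared, 1.83% were 2-fold lower than in S2D and 21.9% than in C2D. Reg2, Reg3a, Reg3b and Reg3g had 444, 23, 188 and 47 UMIs in C6W and 72651, 4159, 126922 and 11124 in C2D.

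Genes that differed 2 days after caerulein were followed to 6 weeks. The C2D and S2D libraries take no part in the ratio of C6W over S6W. Of 509 genes at least 2-fold higher in C2D than in S2D (17.8% of 2866), 172 had enough UMIs for the comparison at 6 weeks. Of these, 3 (1.74%) were 2-fold higher there, beside 1.82% of all genes, none was lower, and their median was -0.11 beside the -0.22 of all genes. The 3 were 1810009J06Rik, Gm2663 and Gm26917, and 1 C6W barcode held most UMIs of the first 2. Of 276 genes lower at 2 days (9.63%), 236 were compared at 6 weeks, with 12 higher (5.08%, beside 1.82% of all genes), 9 lower (3.81%, beside 1.43%) and a median of -0.29. The 9 lower genes were Cel, Amy2a5, Amy2a3, Amy2a2, Amy1, Sdf2l1, Cryab, Fxyd1 and Ttyh1. Cel and Amy2a5 are genes of the rule that chose the barcodes. Without digestive genes, 206 were compared, with 12 higher (5.83%), 4 lower (1.94%) and a median of -0.23. The share of lower genes was then nearer to the 1.43% of all genes. MHC class II and immunoglobulin genes made up 6 of the 12 higher ones.

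**Figure D5:**
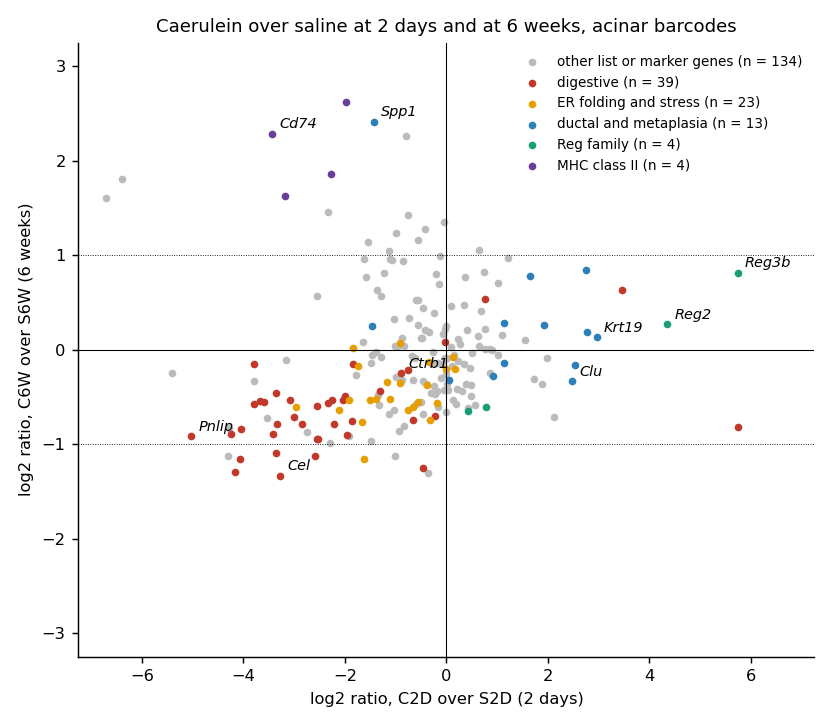
Log2 ratios of caerulein over saline at 2 days (x axis) and at 6 weeks (y axis) in acinar barcodes for 217 list, marker and named genes with 100 UMIs or more in both comparisons. The 2 ratios share no library, and 1 gene beyond the axis (1810009J06Rik) is left out. Reg3b and Krt19 are far right but within 2-fold at 6 weeks, and Cel is below 0 in both.

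A few trypsinogen genes scarce in saline were counted by barcode. The genes 1810009J06Rik, Gm5771, Gm2663, Prss1 and Prss3 (the last 2 annotated trypsinogens, the first 3 chosen with them after their values were seen) gave at least 1% of all UMIs in 245 of 488 C2D acinar barcodes. This was so in 1 of 360 in C6W, 1 of 444 in S6W and 2 of 433 in S2D. In S6W the fullest barcode held 2206 of the 3569 UMIs of these genes. The 1 barcode of C6W held 2219 of the 3718 UMIs of these genes in C6W, among them 175 of the 187 of 1810009J06Rik. It had 114438 UMIs and 3981 genes, was not called a doublet and was in no other library. Its digestive UMIs were 19.7% Ctrb1, 5.88% Try5 and 5.99% Pnlip, and it had 1 UMI of Reg3b and none of Reg2. The high ratio of 1810009J06Rik against S6W (6.44) and that of Gm2663 (3.39) therefore rest mainly on 1 barcode.

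The highest ratios against S6W included genes of immune cells. MHC class II genes, which antigen-presenting cells use to show peptides, were 2-fold higher in 4 of 4 measured members (median 2.07). Of all genes compared, 1.82% were. Against S2D, however, 2 of 4 were 2-fold lower (median -0.91), beside 1.83% of all genes. H2-Ab1 stood at 24.4 scaled CPM in C6W, 3.96 in S6W, 27.6 in S2D and 7.02 in C2D, and Cd74 at 48.6, 9.95, 125 and 11.6. Without the fullest barcode of each library the ratios against S6W were 1.91 for H2-Ab1 and 1.31 for Cd74. The 9 B cell markers moved with them, at 173 CPM in C6W, 36.4 in S6W, 295 in S2D and 9.58 in C2D, with Pax5 at 0 in C6W. Igkc, an immunoglobulin light chain, stood at 76.0, 24.9, 173 and 1.64. Kept barcodes outside the acinar group carried the B cell markers at 19068, 16659, 46783 and 964 CPM. The part of RNA from other cells in the MHC class II values was not tested.

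Nuclear and splicing genes were 2-fold higher than in S6W in 5 of 13 measured members (median 0.95), beside 1.82% of all genes. Among them were Ccnl1, Son and Neat1. Against S2D none of 13 was 2-fold higher (median 0.18), beside 1.1% of all genes. S6W lay below S2D for the same list, with 4 of 13 at least 2-fold lower, beside 2.3%, and a median of -0.61. Neat1, a nuclear noncoding RNA, stood at 44.2 scaled CPM in C6W, 21.4 in S6W, 23.3 in S2D and 10.7 in C2D, with ratios of 1.04 and 0.92, and 71 of its 248 UMIs in C6W and 102 of 168 in S6W lay in 1 barcode. Without the fullest barcode of each library the ratios were 1.90 and 0.82. AP-1 and other early response genes had a median of 0.27 against S6W, with 1 of 14 higher (Klf2), and of -0.24 against S2D, with none past 2-fold.

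Some genes stood apart from both controls in the same direction. The transcriptional regulator Id3 stood at 11.8 scaled CPM in C6W, 4.85 in S6W, 5.18 in S2D and 3.88 in C2D, with ratios of 1.28 (0.68 to 1.89) and 1.18, from 66 UMIs in 44 barcodes. Thinned to 3000 UMIs per barcode its ratio was -0.17, on few UMIs. Chka, choline kinase, stood at 27.4, 10.7, 16.6 and 16.0, with ratios of 1.35 and 0.72, and 1 barcode held 45 of its 154 UMIs. Without the fullest barcode of each library the ratios of Chka were 1.76 and 0.38. Trp53inp1, a stress-induced gene of the p53 pathway, stood at 13.5, 6.89, 6.70 and 15.4, with 0.97 and 1.01. Pld3, a lysosomal nuclease, stood at 8.55, 21.1, 20.2 and 15.8, with -1.30 (-1.80 to -0.83) and -1.24, and at -1.03 against S6W without shared barcodes. Pld3 UMIs were spread over 40 barcodes, with at most 3 in any.

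Cxcl1, which attracts neutrophils, had a UMI in 9.97% of C6W acinar barcodes thinned to 3000 UMIs, in 3.12% of S6W and in 3.86% of S2D. Unthinned, the shares were 24.4, 9.01 and 6.24%, and in the lymphoid-marker barcodes of the same libraries 12.3, 5.45 and 4.83%, with median depths of 8630, 7464.5 and 6928 UMIs. The gene thus had a UMI more often both in acinar barcodes and in cells of another type in C6W. Its level was 20.5 scaled CPM in C6W, 13.8 in S6W and 12.2 in S2D, with ratios of 0.57 (0.18 to 0.96) and 0.75. In S6W 1 barcode held 68 of the 108 Cxcl1 UMIs and in S2D 1 held 29 of 80, against at most 10 of 115 in C6W. Without the fullest barcode of each library the ratios were 1.87 (1.33 to 2.44) and 1.27 (0.77 to 1.78), both past 2-fold. The ratio of Cxcl1 against S6W was 0.38 without shared barcodes. Among barcodes under 4% Clps it turned sign, to -1.20, and at 4% Clps or more it was 1.90.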

How the data were processed

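The authors deposited a matrix of UMI counts per gene and cell barcode for each of 4 libraries. The submitters' processing notes name FastQC, Cell Ranger 3.0.2 and the genome build mm10. Deposited counts were used as they stood. The members and gene lists were chosen with earlier results of these data known. Barcodes were kept at 500 UMIs, 200 genes and at most 20% mt- UMIs. Counts were summed over acinar barcodes and scaled with TMM (R 4.3.3 with edgeR 4.0.16). Each ratio of summed counts, on the log2 scale, carries an exact conditional binomial 95% interval, and a gene was called at 2-fold with 100 or more UMIs over both libraries. Shares carry Clopper-Pearson intervals. Intervals cover counting error only. Barcodes called doublets by Scrublet (scanpy 1.11.5) were kept, 3 of them acinar in C6W. On counts simulated with counting error only and known totals, 0 of 1342 unchanged genes were called. Differences between barcodes or libraries and the TMM step were not simulated, so this does not give the share of false calls here.

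Genes were named without regard to values (the 13 rule genes, Bhlha15, Ptf1a, Rbpjl, Nr5a2, Reg1, Reg3b, Krt19, Sox9, Spp1, Clu and Cxcl1). Others were named by level, as the 10 with most UMIs in C6W, or by size, as the 10 highest and 10 lowest ratios against S6W and the 6 highest and 6 lowest of the same sign against both saline libraries. From each list at most 4 genes of largest absolute ratio were added, and the 10 most variable genes. Size and variation left out mt-, ribosomal protein, haemoglobin, X-inactivation, Y-linked and unnamed genes. Other genes in the text were chosen after their values were seen. Python 3.11.15, scipy 1.17.1 and DESeq2 1.42.0 were also used.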

Additional observations from a re-analysis of the deposited data

Results flagged for a closer look

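For 10 named genes the log2 ratio of caerulein over saline pointed one way at 6 weeks and the other way at 2 days in acinar barcodes. With 1 library per group this difference was not tested. Igkc stood at 1.61 at 6 weeks and -6.71 at 2 days, a difference of 8.33, and Ighm at 1.81 and -6.39, a difference of 8.20. Among MHC class II genes, Cd74 stood at 2.29 and -3.43 (difference 5.72), H2-Aa at 1.62 and -3.17 (4.80), H2-Ab1 at 2.62 and -1.97 (4.60) and H2-Eb1 at 1.86 and -2.27 (4.13). B cell markers in the same barcodes summed to 173 CPM in C6W, 36.4 in S6W, 295 in S2D and 9.58 in C2D, and their part in these values was not tested. Spp1 stood at 2.41 and -1.43 (3.84), Klf2 at 1.46 and -2.33 (3.78), Klf4 at 1.14 and -1.54 (2.68) and Neat1 at 1.04 and -1.12 (2.16).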

How the results depend on the processing

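No paired analysis was possible because each group was 1 library, although the labels give all of them the replicate number 1. The share of C6W barcodes that were acinar and their median digestive share moved by less than their interval or spread under the alternatives run. Against the 28 higher and 22 lower genes, plain CPM gave 114 and 4, totals without digestive genes 39 and 9, a count minimum of 20 gave 298 and 284, a minimum of 400 gave 3 and 9, a rule threshold of 20% gave 45 and 23, thinning to 3000 UMIs 6 and 4, leaving out barcodes with markers of other cells 4 and 1, and S2D as control 15 and 25. Higher calls were 96.6, 81.3, 51.2, 25, 66.2, 60, 80 and 37.5% of calls in that order, against 56.0%. Chosen after seeing the data, barcodes of 4000 to 16000 UMIs gave 20 and 4, those of 1 library only 23 and 10, Clps under 4% 15 and 18. The digestive median of -0.65 was -0.072 under plain CPM, -0.46 with totals without digestive genes, -0.37 thinned, -0.31 without barcodes with markers of other cells, -0.35 against S2D, -0.38 at 4000 to 16000 UMIs, -0.32 without shared barcodes and -0.74 at 4% Clps or more. The enzyme distance of 8.98% was 5.27% at 4000 to 16000 UMIs and 5.73% without shared barcodes. Among ratios called at 2-fold, signs turned for Id3 thinned (-0.17), Amy1 without barcodes with markers of other cells (0.28) and Spp1 under 4% Clps (-0.13). With S2D as control such signs turned for the MHC class II list (-1.34), B2m (-0.14), Cd74 (-1.36), Cxcl14 (1.31), H2-Aa (-1.34), H2-Ab1 (-0.18), H2-Eb1 (-0.48), Ighm (-0.25), Igkc (-1.18) and Klf2 (-0.75). Ratios not called at 2-fold turned sign 103 times over all settings, 21 of them with S2D as control (Reg3b to -1.82, Clps to 0.32) and 17 under plain CPM (Ctrb1 to 0.33, Clps to 0.43). The cause was not tested. Fewer barcodes or UMIs also left fewer genes to compare, 423 of 1539 when thinned. Of the other ratios of named genes, 1391 main values lay within the alternative's interval and 541 did not, and 340 list medians moved by less than 0.25 and 119 by more. Depth limits genes of few UMIs, such as Ptf1a.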
